A study of Mus musculus with 7 samples.

Results

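The 6 genes Amy1, Smr3a, Bpifa2, Cst10, Mucl2 and BC037156, most of which encode proteins that glands of the head secrete into saliva or tears, were followed in nasal tissue of mice that had inhaled diesel exhaust particles (DEP) and of control mice. They were chosen by symbol, because in these same arrays their ratio of DEP to control was extreme at 4 or at 8 weeks, so their values are given as a description with no test. The 6 genes were read by 7 of 39429 probes (Smr3a by 2 probes, each other gene by 1), and all 7 probes were among the 25123 that stood well above background in either RNA on at least 3 of the 7 arrays. Cst10 passed this filter mainly through the 8-week arrays and Mucl2 through the 4-week arrays, where they were bright. The tested probes stood for 20635 genes or transcripts.

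All animals were female BALB/c mice with a stated age of 6 weeks. Their age when the tissue was taken is not given in the methods. In the DEP group the mice inhaled particles suspended in saline, at 100 μg/m3, for 1 hour a day on 5 days a week. The exposure lasted 4 weeks (4 arrays) or 8 weeks (3 arrays), and the control mice inhaled saline alone according to the methods, which describe the exposure of 4 weeks. The tissue was nasal cavity with septum and turbinates, cut from the head between the incisive papilla and a molar. Each array held DEP RNA labelled with Cy5 and control RNA labelled with Cy3, with no dye swap, so a difference between the RNAs and a difference between the dyes cannot be told apart. Each exposure time had its own slide, and mice of the longer exposure may have been older when sampled. Time, slide and age thus cannot be told apart either. Whether the RNA of several mice was pooled, and whether control arrays of one time held different mice, is not given in the sources used here.

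Salivary and lacrimal glands are exocrine: acinar cells make and store secretory proteins and release them on nervous stimulation, and ducts modify the fluid on its way out. In rodents the parotid gland makes much amylase, while the granular ducts of the submandibular gland make kallikreins and growth factors. The nasal wall and septum carry glands of their own, and larger glands lie close to the tissue that was cut. In bulk tissue, fewer cells of a type and less RNA per cell cannot be told apart.

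The 70 bases before each annotated start are given because 4 of the genes had low ratios at 8 weeks, for which they had been chosen. They were read from RefSeq promoters of GRCm38.p6, 5′ to 3′ on the strand of the gene, and end at the base before the start. Capitals mark TATAA, searched on both strands with overlaps allowed. It was found before 4 of the 7 starts and in the same window of 8.0% of 32841 promoters. Amy1 has 2 annotated starts.
Amy1, upstream start, chr3:113577751-113577820, minus strand: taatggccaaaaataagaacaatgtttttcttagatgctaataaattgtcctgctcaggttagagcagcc
Amy1, downstream start, chr3:113574763-113574832, minus strand: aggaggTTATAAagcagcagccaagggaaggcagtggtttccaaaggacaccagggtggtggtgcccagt
Smr3a, chr5:88002455-88002524, plus strand: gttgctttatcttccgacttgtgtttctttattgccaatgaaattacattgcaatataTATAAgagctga
Bpifa2, chr2:154008206-154008275, plus strand: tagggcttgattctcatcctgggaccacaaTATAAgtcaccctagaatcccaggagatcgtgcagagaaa
Cst10, chr2:149405179-149405248, plus strand: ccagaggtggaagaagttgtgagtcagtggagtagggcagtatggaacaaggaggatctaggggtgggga
Mucl2, chr15:103899313-103899382, minus strand: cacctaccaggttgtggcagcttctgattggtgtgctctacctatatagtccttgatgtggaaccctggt
BC037156, chr5:87908709-87908778, plus strand: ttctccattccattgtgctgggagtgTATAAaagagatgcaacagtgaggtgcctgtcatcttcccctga
The windows of Smr3a, Bpifa2 and BC037156 each held the motif once, and the window of the downstream Amy1 start held it on both strands, overlapping. No match in a window says only that these letters are not there.

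The 6 genes followed 3 courses. Amy1, Smr3a, Cst10 and Bpifa2 were brightest in the control RNA of 8 weeks, and their low ratios at 8 weeks came with a control RNA that was 7.29 to 47.7-fold higher at 8 than at 4 weeks. For Cst10 the 4-week level was near background. Mucl2 was bright in both RNAs at 4 weeks, 11.8-fold higher in DEP, and near background in both at 8 weeks. BC037156 was bright in the control RNA at both times and lower in DEP at both times. The plot of scanned signals shows each RNA on each array.

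**Figure D1:**
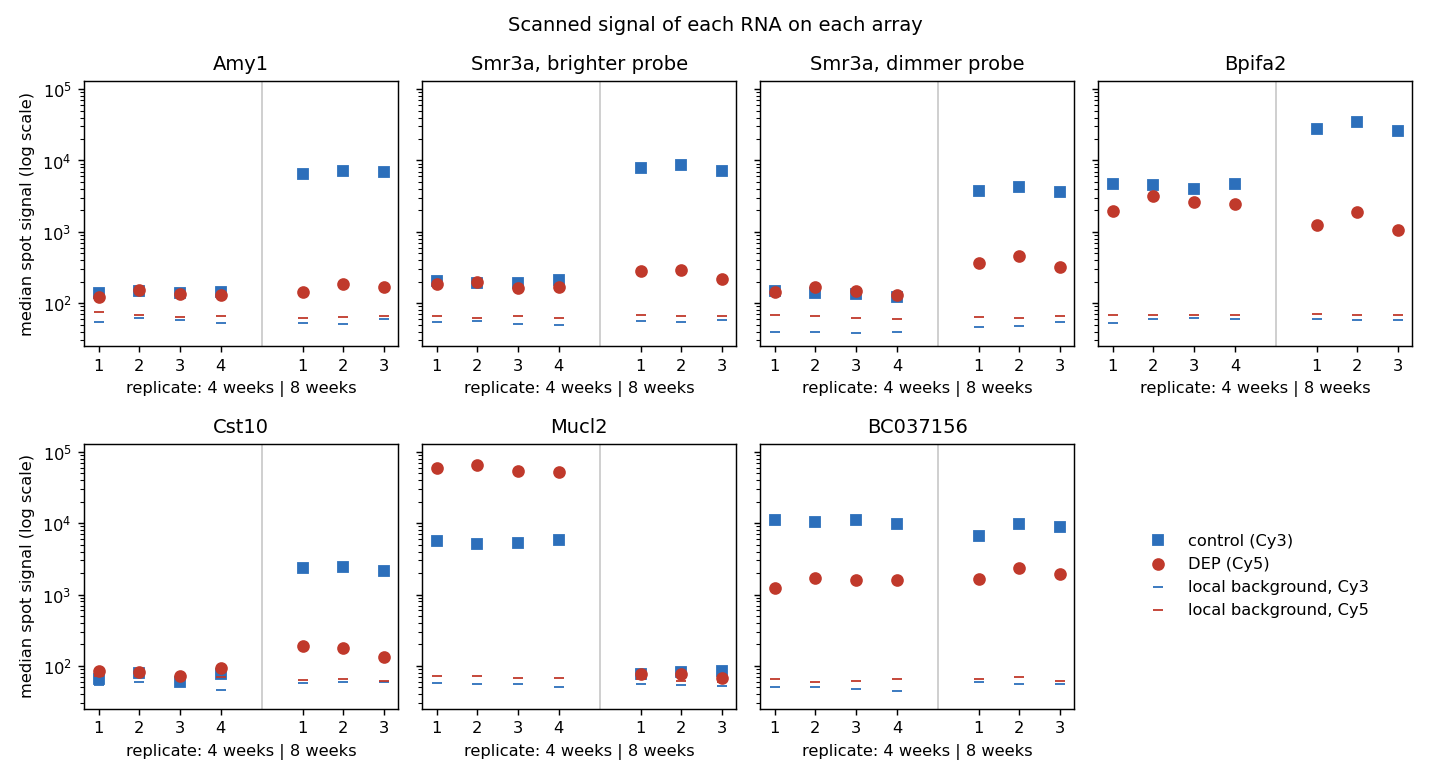
Median spot signal on a log scale for the 7 probes, with control RNA as blue squares and DEP RNA as red circles on each replicate array of 4 and 8 weeks, and local background as dashes. The control signal of Amy1 lies between 138.5 and 150 at 4 weeks and between 6531.5 and 7171 at 8 weeks, while Mucl2 is near the background in both RNAs at 8 weeks.

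Amy1 encodes the amylase of salivary glands, which digests starch. Its scanned control signal was 141, 150, 138.5 and 145 on the 4 arrays of 4 weeks and 6531.5, 7171 and 6981.5 on the 3 arrays of 8 weeks, in arbitrary fluorescence units. Its DEP signal was 121, 150.5, 134 and 132 at 4 weeks and 143.5, 186.5 and 170.5 at 8 weeks. Only the control RNA of 8 weeks was high, and it lay far above every other value of the gene. The log2 ratio of DEP over control averaged -0.07 at 4 weeks (SD 0.061, n = 4) and -4.90 at 8 weeks (SD 0.151, n = 3), or 29.8-fold lower in DEP at 8 weeks. This was the lowest ratio of the 20635 genes at 8 weeks.

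Smr3a encodes a small secreted proline-rich protein of the submandibular gland, from a cluster of such genes on chromosome 5. On its brighter probe the control signal was 207, 190, 192 and 213 at 4 weeks and 7955, 8702.5 and 7211 at 8 weeks. The DEP signal of that probe was 186, 195, 165 and 169 at 4 weeks and 285, 292.5 and 218 at 8 weeks. The DEP values of 8 weeks were thus above those of 4 weeks as scanned, and the control values of 8 weeks were higher again by a wide margin. Its log2 ratio averaged -0.07 at 4 weeks (SD 0.148, n = 4) and -4.45 at 8 weeks (SD 0.042, n = 3), a 21.9-fold lower level in DEP. The dimmer probe of Smr3a had the same direction at 8 weeks with a smaller size, -2.87 (SD 0.106, n = 3) or 7.31-fold lower, with control signals of 3719, 4300.5 and 3625.5 against DEP signals of 370, 463 and 317. At 4 weeks the dimmer probe averaged 0.05 (SD 0.027, n = 4).

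Bpifa2 encodes parotid secretory protein, a lipid-binding protein of saliva related to the PLUNC proteins of the airway. It was well above background in both RNAs on all 7 arrays. Its control signal was 4750.5, 4554, 3981 and 4730 at 4 weeks and 27692, 34168.5 and 25833 at 8 weeks. Its DEP signal was 1967.5, 3173, 2636 and 2433 at 4 weeks and 1234.5, 1877.5 and 1077 at 8 weeks. The DEP signal was below the control signal on all 7 arrays, by more at 8 weeks. The log2 ratio averaged -0.63 at 4 weeks (SD 0.223, n = 4) and -4.05 at 8 weeks (SD 0.18, n = 3), the latter 16.5-fold lower in DEP.

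Cst10 encodes a secreted inhibitor of the cystatin family, first described in cartilage. At 4 weeks it was near background, with DEP signals of 72 to 94 and control signals of 59 to 78.5, and each RNA stood well above background on 1 of 4 arrays. At 8 weeks the control signal was 2327, 2437 and 2141.5 and the DEP signal was 190, 176.5 and 133, all well above background. The log2 ratio at 8 weeks averaged -3.35 (SD 0.126, n = 3), 10.2-fold lower in DEP. The 4-week ratio of -0.01 (SD 0.107, n = 4) rests on signals near background.

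Mucl2 encodes a small mucin-like protein that RefSeq also names Spt1. Its DEP signal at 4 weeks was 59402, 65905.5, 53374 and 51987 and its control signal was 5566, 5081, 5220.5 and 5879. At 8 weeks the DEP signal was 76, 78 and 68.5 and the control signal was 76.5, 83 and 84.5. DEP was well above background on 0 of 3 arrays at 8 weeks and control on 1 of 3. The log2 ratio at 4 weeks averaged 3.56 (SD 0.128, n = 4), 11.8-fold higher in DEP and the third highest of all genes. No fold is given at 8 weeks, where the mean log2 ratio was -0.11 between signals near background. The DEP RNA of 4 weeks was at least 720.1-fold above that of 8 weeks, where the dim level on each array was the higher of the probe's own signal and the lowest signal of any probe well above background. The control RNA of 4 weeks was 56.5-fold above that of 8 weeks, a value that rests on a dim group with 1 of 3 arrays above background.

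BC037156 is listed in RefSeq with the synonym FDC-SP, a small peptide secreted by follicular dendritic cells and by epithelia, and its gene lies in the same cluster on chromosome 5 as Smr3a. Its control signal was 11073, 10467, 11077 and 9646 at 4 weeks and 6640, 9606.5 and 8844 at 8 weeks. Its DEP signal was 1228, 1731, 1617 and 1582 at 4 weeks and 1672, 2332.5 and 1927.5 at 8 weeks. The 2 RNAs did not overlap at either time. The log2 ratio averaged -2.58 at 4 weeks (SD 0.219, n = 4), 5.98-fold lower in DEP, and -1.66 at 8 weeks (SD 0.044, n = 3), 3.15-fold lower. BC037156 was the second lowest of all genes at 4 weeks and the 36th at 8 weeks.

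**Figure D2:**
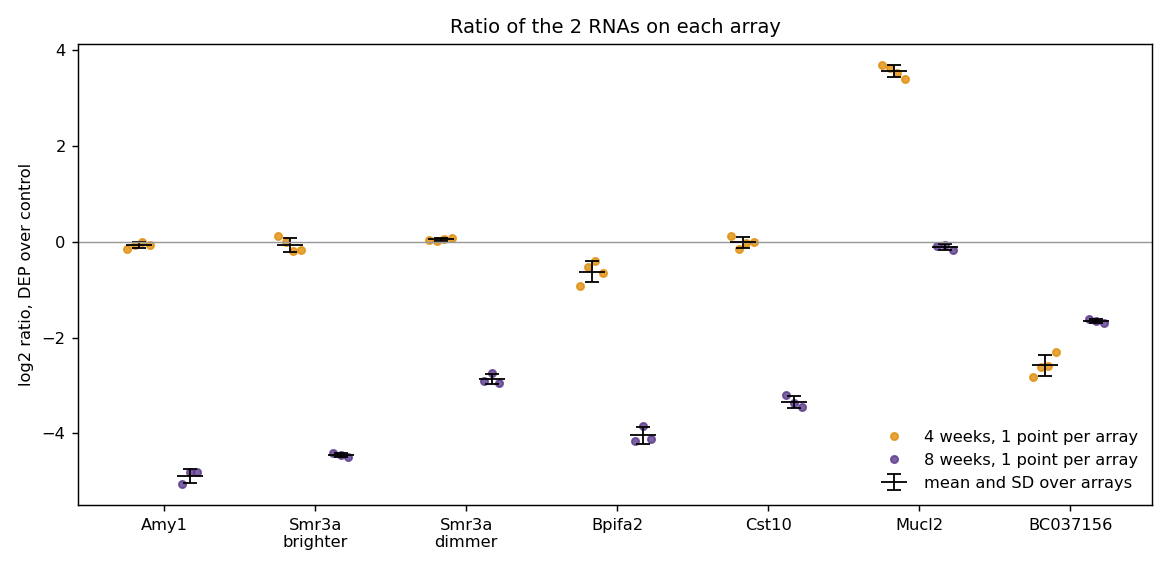
Log2 ratio of DEP over control for the 7 probes, 1 point per array, with black bars for the mean and the SD over the 4 arrays of 4 weeks and the 3 arrays of 8 weeks. Amy1, Smr3a, Bpifa2 and Cst10 lie between -5.07 and -2.75 at 8 weeks, Mucl2 lies between 3.41 and 3.70 at 4 weeks, and BC037156 is below 0 at both times.

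Of the 6 genes, 5 were thus more than 2-fold lower in DEP at 8 weeks and 1 at 4 weeks, while 1 was more than 2-fold higher at 4 weeks. Over all 20635 genes, a 2-fold change with an unadjusted p up to 0.01 (limma) was reached by 0.848% as lower and 2.10% as higher in DEP at 8 weeks, and by 0.368% as lower and 0.935% as higher at 4 weeks. Since these contrasts chose the genes, nothing is read from the counts. The median log2 ratio of the 6 genes was -0.07 at 4 weeks and -3.70 at 8 weeks, beside 0.00 (4 weeks) and 0.01 (8 weeks) over all genes. Amy1, Smr3a, Bpifa2 and Cst10 held ranks 1, 3, 4 and 5 among the lowest ratios of 8 weeks. A transcript without a symbol held rank 2 at -4.51, and Chia1, an acidic chitinase, followed at rank 6 with -3.28. Mucl2 stood at 4 weeks between a transcript without a symbol at 3.57 and Scgb1b2 at 3.56, a secretoglobin of the androgen-binding protein family. BC037156 stood between Heatr5b at -2.68 and Sprr2d at -2.48, a small proline-rich protein of the cornified envelope.

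The levels of each RNA were next set side by side between the times, on a log2 scale after loess within arrays and quantile normalization of the average intensity between arrays. In the control RNA, Amy1 was higher at 8 than at 4 weeks by 5.58 (47.7-fold), Smr3a by 5.31 (39.6-fold), Cst10 by 4.83 (28.4-fold) and Bpifa2 by 2.87 (7.29-fold). In the DEP RNA Amy1, Smr3a, Cst10 and Bpifa2 differed by 0.75, 0.92, 1.49 and -0.55. Both changes of Cst10 rest on 4-week levels that were well above background on 1 of 4 arrays in each RNA. With processed signals its control rise was 7.83. The change in the control RNA exceeded the change in the DEP RNA for each of the 4 genes. Among 20382 genes with a fitted level in both RNAs, Amy1 had the largest rise of the control RNA, and Smr3a, Cst10 and Bpifa2 stood at ranks 3, 5 and 10. The 4 genes were chosen for low 8-week ratios, and the control level is part of each ratio. That choice goes far to fix both results, so nothing is read from them. The median over all genes was 0.02 for either RNA.

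For Mucl2 the control RNA differed by -5.82 and the DEP RNA by -9.49 between the times, the third and the second largest fall of all genes, in that order. For BC037156 the control RNA differed by -0.20, which turned to 0.39 with the processed signals of the scanner software, and the DEP RNA by 0.73. On the 8-week arrays the control level of Amy1 had an SD of 0.061, percentile 41.2 among all genes, whose median SD was 0.071. The control level of Bpifa2 had an SD of 0.154 and that of BC037156 one of 0.242, percentiles 90.1 and 96.3.

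Spike-in transcripts added to the RNAs give the scanned scale of the 2 slides. Their DEP signal differed by -1.501 to -0.87 on the log2 scale between 8 and 4 weeks (median -1.22, 8 spike-ins with a mean over 1000), and their control signal by 0.42 to 0.73 (median 0.60, 7 spike-ins). The control rise of Amy1, Smr3a, Cst10 and Bpifa2 was larger than that of every spike-in, both on the normalized scale and without normalization between arrays, where it was 5.37, 5.09, 4.70 and 2.61. The 4 genes were chosen for low 8-week ratios, the 4-week level of Cst10 was near background, and the scales are unlike. For these reasons nothing is read from the comparison. The spike-in values are signals as scanned, while the gene levels had background removal and loess within arrays in both settings. The part of the slide and of age in these changes was not tested.

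**Figure D3:**
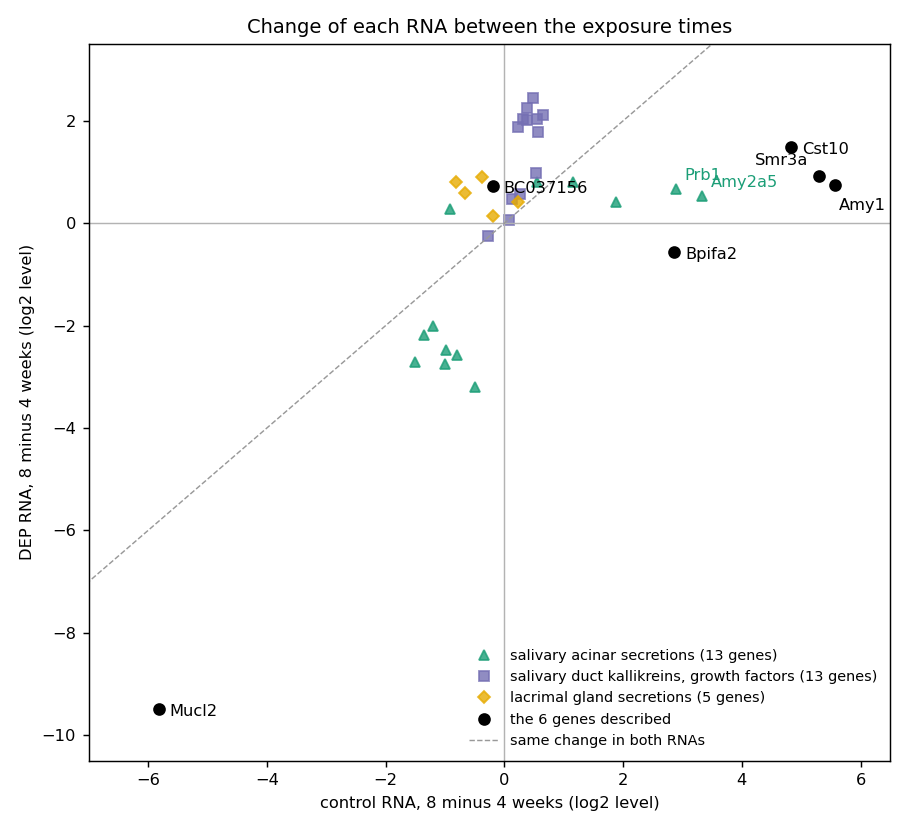
Change of the log2 level between the times (8 minus 4 weeks) in the control RNA on the horizontal axis and in the DEP RNA on the vertical axis, for the 6 genes (black circles) and the genes of 3 gland lists, with a dashed line where both RNAs change alike. Amy1, Smr3a, Cst10 and Bpifa2 lie to the right with Amy2a5 and Prb1, Mucl2 lies at the lower left at -5.82 and -9.49, and most kallikreins lie above the line.

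The genes with the most similar course were found by the root mean square difference of the log2 ratio over the 7 arrays, among 15682 other genes with a symbol. Amy1 and Smr3a were each other's nearest, at a difference of 0.34. The 3 nearest of each of Amy1, Smr3a and Bpifa2 were members of the same group of 4, at 0.34 to 1.03. These 4 genes were chosen for very low 8-week ratios on the same arrays. That choice goes far to fix their nearness, so nothing is read from it. Cst10 was nearest to Chia1 at 0.13, whose log2 ratio was 0.14 at 4 weeks (adjusted p = 0.11) and -3.28 at 8 weeks (adjusted p = 2.2e-07, limma). Second to Cst10 was Amy2a5 at 0.34. Mucl2 was nearest to the secretoglobins Scgb1b2, Scgb1b24 and Scgb2b24, at 0.42 to 0.48, and these had ratios of 3.56, 2.98 and 2.98 at 4 weeks (adjusted p at most 3.8e-07, limma). BC037156 was nearest to Ada, adenosine deaminase, at 0.21, to Sprr2d at 0.28 and to Dynap at 0.48. Ada was lower in DEP by -2.48 at 4 weeks (adjusted p = 1.7e-07, limma) and by -1.54 at 8 weeks (adjusted p = 2.7e-06, limma). All these near genes were picked for ratios like those of genes with extreme ratios on the same arrays. Their large ratios and small adjusted p follow from that choice, so nothing is read from them. The genes of one secretoglobin family are near copies of each other and can share probe signal.

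Close relatives of the genes and their neighbours on the chromosome were read next. Amy2a5 encodes pancreatic amylase and lies beside Amy1 on chromosome 3, and its transcript can share signal with that of Amy1, since the probe sequences were not used here. Its brighter probe was not well above background at 4 weeks, and at 8 weeks its control signal was 772, 908 and 733.5 against a DEP signal of 94.5, 99 and 87. Its log2 ratio at 8 weeks was -2.87 (SE 0.065, adjusted p = 3.3e-07, limma), and its control RNA of 8 weeks was at least 8.38-fold above that of 4 weeks. On the second Amy2a5 probe control was at least 4.83-fold above DEP at 8 weeks. Both probes of Smr2 and the probe of Amy2a4 were too dim to test, although Smr2 had a control signal of 584.5 on replicate 1 of 4 weeks against 42 to 76 on the other arrays of that time.

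On chromosome 5, the enamel and junctional epithelium genes around Smr3a and BC037156 had the opposite direction at 8 weeks. Ambn, ameloblastin of the enamel, fell at 4 weeks (-2.41, adjusted p = 3.7e-06) and rose at 8 weeks (1.52, adjusted p = 3.1e-05, limma). Odam fell at 4 weeks (-1.33, adjusted p = 7.8e-06) and rose at 8 weeks (0.68, adjusted p = 0.00031, limma). Amtn, amelotin, fell at 4 weeks (-0.44, adjusted p = 0.0079) and rose at 8 weeks (1.68, adjusted p = 2e-05, limma). Cabs1, which lies between Smr3a and BC037156, rose at 4 weeks (0.35, adjusted p = 0.0027) and at 8 weeks (0.90, adjusted p = 4.4e-05, limma). Teeth are anchored beside the nasal floor. Of the 10 genes on a list of tooth and bone, 9 were lower and 0 higher in DEP at 4 weeks, and 0 were lower and 8 higher at 8 weeks. Over all genes 16.4% were lower and 21.8% higher at 4 weeks, and 17.0% lower and 20.4% higher at 8 weeks, at the same adjusted p of at most 0.05. The part of tooth and bone in the ratios of the 6 genes was not tested.

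Bpifa2 lies on chromosome 2 among genes of the same family. Of these, Bpifa6 (-0.93, adjusted p = 3e-04), Bpifb4 (-0.76, adjusted p = 0.0031) and Bpifb6 (-0.43, adjusted p = 0.0033, limma) fell in DEP at 8 weeks, by less than Bpifa2. As for Bpifa2, their control level was higher at 8 than at 4 weeks, by 0.34, 0.55 and 0.89. Their DEP level differed by -0.62, -0.58 and -0.07. Unlike for Bpifa2, the DEP RNA thus moved more than the control RNA for Bpifa6 and Bpifb4. Bpifb2, farther from Bpifa2, fell by 2.25 (adjusted p = 4.7e-07, limma), and its control level differed by -1.55 and its DEP level by -3.58. Bpifb3 also fell, at the edge of the threshold (-0.27, adjusted p = 0.05), while Bpifa3 was at -0.04 (adjusted p = 0.94, limma). Bpifa5 (0.33, adjusted p = 0.0085) and Bpifb1 (0.40, adjusted p = 0.025, limma) rose at 8 weeks. Bpifa1, the main PLUNC protein of the upper airway, was 0.04 at 4 weeks (adjusted p = 0.58) and 0.41 at 8 weeks (adjusted p = 0.0019, limma). Glycam1, a mucin-like ligand of selectins beside Mucl2 on chromosome 15, fell at 4 weeks (-0.61, adjusted p = 0.00038) and rose at 8 weeks (2.36, adjusted p = 1.6e-06, limma), where Mucl2 was near background. Cst3, the widely expressed cystatin C beside Cst10, fell at 4 weeks (-0.43, adjusted p = 0.00025) and at 8 weeks (-0.38, adjusted p = 0.00077, limma).

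Lists of other gland genes set the 6 genes in context. The salivary acinar list holds secreted mucins, proline-rich proteins and enzymes, and 13 of its 16 genes were tested. At 8 weeks 8 fell and 3 rose at an adjusted p of at most 0.05, where 17.0% of all genes fell and 20.4% rose, and the list's median was -1.13 beside 0.01 over all genes. Among the 8 was Amy2a5, which can share signal with Amy1 and passed the filter through the 8-week arrays only. The Dcpp genes, near copies of each other, were also among them, so the 8 are not separate measurements. At 4 weeks 5 fell and 5 rose, where 16.4% of all genes fell and 21.8% rose, with a list median of 0.15. The 3 that rose at 8 weeks became 1 without replicate 2 or replicate 3 of 8 weeks, by the methods' t-test and under median centring, while the number that fell was 6 to 9 over the alternatives.

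In the control RNA, 8 of the 13 acinar genes were lower at 8 than at 4 weeks and 5 were higher, with a median change of -0.79, where 10.7% of all genes were lower and 20.0% higher at an adjusted p of at most 0.05 (limma). Of the 5, 3 genes besides Amy2a5 had a control RNA that was higher at 8 weeks by over 1 on the log2 scale. Prb1, a proline-rich protein of parotid saliva, had control signals of 84 to 92 at 4 weeks and 707, 766.5 and 694 at 8 weeks. Its DEP signal was 91 to 112 at 4 weeks and 142, 133.5 and 115 at 8 weeks, so the control RNA of 8 weeks again stood apart. Its log2 ratio at 8 weeks was -2.06 (SE 0.087, adjusted p = 3.8e-06, limma). The control RNA of Prb1 rose by 2.88 (adjusted p = 1e-10, limma), that of Prpmp5, another proline-rich protein, by 1.89 (adjusted p = 4.2e-08, limma), and that of Prh1 by 1.16 (adjusted p = 2.4e-06, limma). The 4-week signals of Prb1 were little above those called near background for Mucl2 at 8 weeks, so its rise starts from a dim level. Prpmp5 rose in DEP at 4 weeks (0.45, adjusted p = 0.0065) and fell at 8 weeks (-1.01, adjusted p = 0.00028, limma), while Prh1 was at 0.03 (adjusted p = 0.72).

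The mucins and Dcpp genes of that list had another course. Muc5b, a gel-forming mucin, fell in DEP at 8 weeks (-1.54, adjusted p = 2.8e-05, limma), and its level was lower at 8 than at 4 weeks in the control RNA (-0.79) and more so in the DEP RNA (-2.58). Dcpp1, Dcpp2 and Dcpp3, demilune cell proteins, fell at 8 weeks by 2.00, 1.13 and 1.70 (adjusted p at most 4.4e-06, limma), and Smgc, a mucin-like protein of the same glands, by 1.26 (adjusted p = 1.5e-05, limma). At 4 weeks Dcpp1, Dcpp2, Dcpp3 and Smgc were also lower in DEP, at -0.51, -0.30, -0.49 and -0.45 (adjusted p at most 0.0016, limma). Their levels were lower at 8 weeks in both RNAs, with a control change of -1.51 to -0.99. The 3 Dcpp genes are near copies of each other and may share signal.

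Lpo and Pip, secreted proteins of that list, resembled Mucl2 at 4 weeks. Lpo, lactoperoxidase, had DEP signals of 3648, 5030.5, 4433 and 4331 and control signals of 669.5, 638.5, 585.5 and 624.5 at 4 weeks, and rose by 2.98 on the log2 scale (SE 0.062, adjusted p = 1.7e-07, limma). Pip, prolactin-inducible protein, rose by 2.08 (SE 0.081, adjusted p = 4.6e-06, limma). At 8 weeks Lpo was at 0.28 (adjusted p = 0.018) and Pip at 0.34 (adjusted p = 0.024, limma), and the DEP RNA of both was lower than at 4 weeks, by -3.20 for Lpo and -2.74 for Pip. Unlike Mucl2, both remained well measured at 8 weeks, with signals from 356.5 to 432.5 for Lpo and from 5404.5 to 6661 for Pip. Mup5 had the lowest ratio of the list at 4 weeks (-0.98, adjusted p = 8.4e-05, limma), and Car6, the carbonic anhydrase of saliva, the highest at 8 weeks (0.61, adjusted p = 0.00049, limma).

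The kallikreins and growth factors of salivary ducts went the other way from Amy1, Smr3a, Bpifa2 and Cst10. Of the 14 tested, 13 rose and 0 fell at 8 weeks, where 20.4% of all genes rose and 17.0% fell, with a list median of 1.27. At 4 weeks 9 fell and 2 rose, where 16.4% of all genes fell and 21.8% rose, with a list median of -0.21. The 9 became 5 without replicate 2 of 4 weeks, and the 2 became 0 without replicate 3 of 4 weeks and by the methods' t-test. Klk1, tissue kallikrein, had DEP signals of 1798 to 2355 at 4 weeks and 6453, 6787 and 5648.5 at 8 weeks, while its control signals were 2633.5 to 2820 at 4 weeks and 2840.5, 3425 and 2721 at 8 weeks. It rose in DEP at 8 weeks by 1.49 (SE 0.056, adjusted p = 2.6e-06, limma), and the change between the times lay mostly in the DEP RNA. Klk1b26 had the highest ratio of the list at 8 weeks, 1.75 (adjusted p = 2e-06, limma), and Klk1b3, Klk1b4, Klk1b5, Klk1b8, Klk1b21, Klk1b22 and Klk1b24 lay between 1.12 and 1.55. Klk1b4 was measured on 3 of the 4 arrays of 4 weeks and was left out of the fit of levels. Egf was at 0.04 at 8 weeks (adjusted p = 0.65, limma), and Ren1, renin, had the highest ratio of the list at 4 weeks, 0.24 (adjusted p = 0.017, limma). The Klk1b genes are near copies of each other and cannot be counted as separate measurements.

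The 5 tested genes of a lacrimal secretion list did not share the direction of Amy1 at 8 weeks. Pigr and Ltf among them also stand on the plasma cell and neutrophil lists, so the list is not particular to the lacrimal gland. Of the 15 listed, 6 were on the array under a matched name and 5 were tested. All 5 rose at 8 weeks, where 20.4% of all genes rose and 17.0% fell, with a list median of 1.57. Mup4, a lipocalin of the lacrimal gland, rose by 1.81 (adjusted p = 1e-06), Pigr, the receptor that carries IgA into secretions, by 1.64 (adjusted p = 4.6e-06), Lcn11 by 1.57 (adjusted p = 1.2e-05) and Wfdc18 by 1.01 (adjusted p = 0.00018, limma). Ltf, lactoferrin, had the lowest ratio, 0.36 (adjusted p = 0.03, limma). At 4 weeks 4 of the 5 rose, where 21.8% of all genes rose and 16.4% fell, with a list median of 0.32. However, the values of Mup4 and Lcn11 at that time were -0.10 and -0.056 with the processed signals. In the control RNA 3 of the 5 fell between 4 and 8 weeks and 0 rose, beside the 10.7% and 20.0% of all genes.

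**Figure D4:**
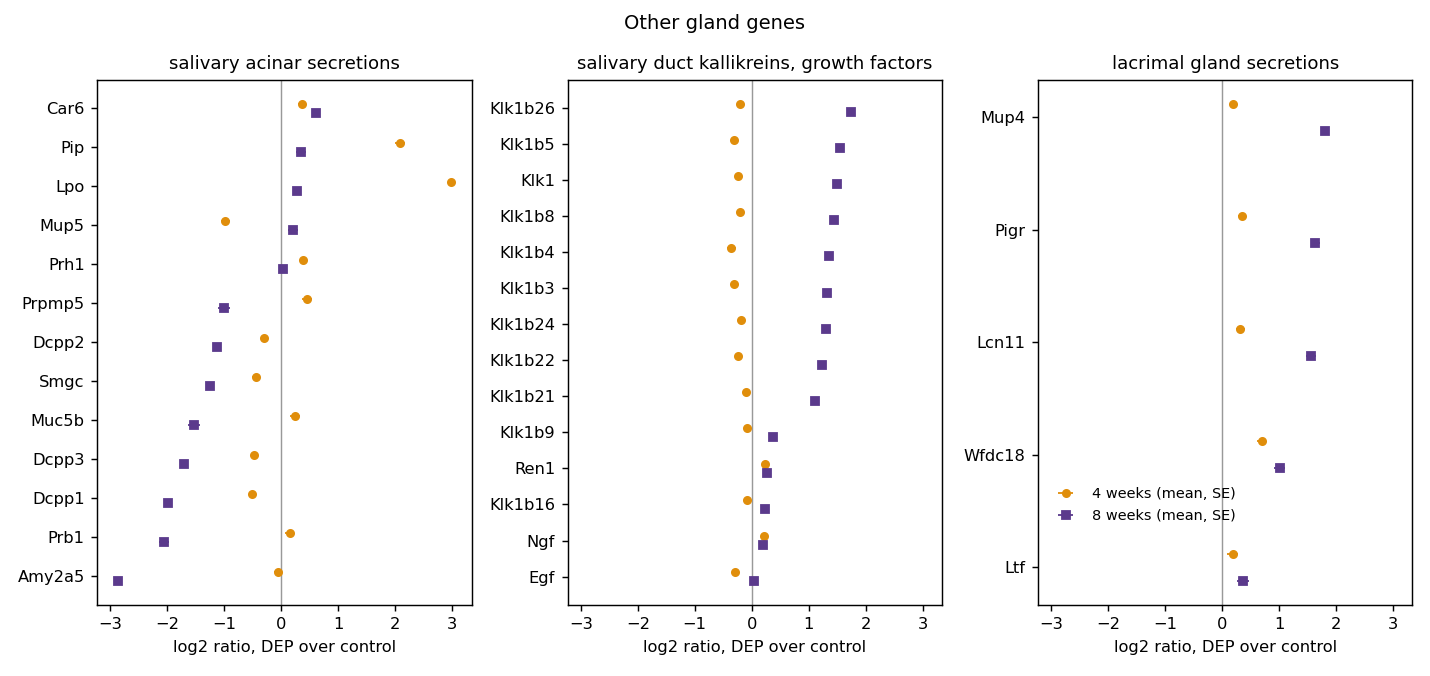
Mean log2 ratio of DEP over control with its SE for the tested genes of the salivary acinar, salivary duct and lacrimal lists, at 4 weeks (orange circles, 4 arrays) and 8 weeks (purple squares, 3 arrays). Acinar genes run from -2.87 (Amy2a5) to 0.61 (Car6) at 8 weeks, while the duct and lacrimal genes lie above 0 at 8 weeks.

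The machinery that acinar cells use to secrete was read from a list of 20 genes, all of them tested. At 8 weeks 4 rose and 4 fell with a median of 0.04, close to the 20.4% and 17.0% of all genes. At 4 weeks 5 rose and 8 fell with a median of -0.11, where 21.8% of all genes rose and 16.4% fell. Over the alternatives 2 to 6 rose and 1 to 8 fell at 8 weeks, with 2 higher without replicate 1 or 2 and 1 lower without replicate 3 of that time. At 4 weeks 2 to 5 rose and 3 to 9 fell, with 3 higher without replicate 2 or 3, and 4 or 5 lower without replicate 2, 3 or 4. By the methods' thresholds (2-fold with p up to 0.01), 0 of the 20 rose and 0 fell at either time. Bhlha15, the transcription factor Mist1 of secretory cells, rose at both times (0.73 and 0.73, adjusted p = 5.3e-05 and 8.1e-05, limma). Rab27b, a GTPase of secretory granules, had the lowest ratio at 4 weeks (-0.70, adjusted p = 0.00086, limma), and Tmem97 the lowest at 8 weeks (-0.60, adjusted p = 0.00013, limma). Aqp5, the water channel of acinar cells, rose at 4 weeks (0.49, adjusted p = 0.00085) and was at -0.19 at 8 weeks (adjusted p = 0.067, limma).

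Markers of the labelled tissue and of other tissues were measured on the same arrays. All 10 genes of an olfactory neuron list and all 18 nasal gland genes on the array passed the filter on dim probes. The counts that follow are of genes at an adjusted p of at most 0.05. Of all genes 21.8% rose and 16.4% fell at 4 weeks, and 20.4% rose and 17.0% fell at 8 weeks. The skeletal muscle counts of 4 weeks lie near these shares. Olfactory neuron genes had a median of 0.44 at 4 weeks (7 rose, 0 fell) and of -0.54 at 8 weeks (0 rose, 9 fell). Nasal gland genes had a median of 0.39 at 4 weeks (11 rose, 1 fell), from -0.27 for Scgb3a1 to 1.21 for Muc5ac, and of 0.13 at 8 weeks (8 rose, 5 fell), from -0.76 for Bpifb4 to 1.503 for Obp1a. The 12 squamous epithelium genes had a median of -0.57 at 4 weeks (0 rose, 10 fell) and of -0.15 at 8 weeks (4 rose, 4 fell), with Sprr2d lowest at both times. The 6 tested genes of the ciliated cell list had a median of 0.35 at 4 weeks (4 rose, 0 fell) and 0.14 at 8 weeks (2 rose, 0 fell). The 12 skeletal muscle genes had 0.12 (3 rose, 2 fell) and -0.36 (1 rose, 7 fell). The 10 neutrophil genes had -0.67 (2 rose, 6 fell) and -0.82 (2 rose, 6 fell), and the 5 genes of plasma cells and gland IgA had 0.23 (3 rose, 1 fell) and 0.77 (4 rose, 0 fell). The part of each tissue in the ratios of the 6 genes was not tested.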

How the data were processed

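RNA of nasal tissue was hybridized by the authors to Agilent mouse arrays in 2 colours, with 4 arrays at 4 weeks and 3 at 8 weeks, and scanned with Feature Extraction 10.10.1.1. The deposited median signals and backgrounds are intensity values with no normalization, and the deposited processed signals hold intensity after background subtraction and dye normalization by the software. The deposited log ratio is the log10 of processed Cy5 over Cy3 (Pearson's r of 0.8414 to 0.892 across probes with the ratios used here). The authors' GeneSpring normalization was not used here.

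Background was removed by normexp in limma 3.58.1 (R 4.3.3), with an offset of 50 and a fit that left out background outliers flagged by the scanner software. Ratios were normalized by loess within arrays, and spots of a probe were averaged. In each array 16818 to 26920 probes were well above background in an RNA, and no spot was saturated. The number of arrays limits the precision. Probes were named through RefSeq accessions of GRCm38.p6 (28330 of 39429), and other probes keep their deposited name. A gene is its tested probe of highest mean intensity.

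One linear model gave the mean log2 ratio of each time and their difference, each tested two-sided by limma's moderated statistics with Benjamini-Hochberg adjustment over 25123 probes. RNA levels came from a separate channel fit (24814 probes without a missing spot, intraspot correlation 0.42). Steps were tested on simulated data. Labels number the arrays as replicates. Replicate ratios correlated at 0.44 to 0.49 within 4 weeks, 0.71 to 0.88 within 8 weeks and 0.09 to 0.29 between the times. The genes and the lists were chosen with earlier results of these data known. Named besides the 6 genes were list genes past the methods' thresholds or at the ends of a list, close relatives, and the 3 genes nearest in course. Chosen after their values were seen were Prh1, Aqp5, the chromosomal neighbours that are no close relatives and the genes beside the 6 in rank. Alternatives were background correction, normalization, filters, probe choice, the methods' t-test, the replicate number as a block, and leaving out each array.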

Additional observations from a re-analysis of the deposited data

Results flagged for a closer look

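With 4 arrays a group, the array farthest from the others was examined in 44 sets of 4-week values, of which chance alone sets apart about 1 in 20, and 7 stood apart. Bpifa2 had a DEP level of 11.01 on replicate 1 against 11.34 to 11.39 on the other arrays (log2). Mucl2 had a DEP level of 15.89 on replicate 1 against 15.72 to 15.75, and the brighter probe of Smr3a had a control level of 7.74 on replicate 4 against 7.48 to 7.52. The log2 ratio of Klk1b21 was -0.17 on replicate 3 against -0.09 to -0.08, and on replicate 1 it was -0.20 against -0.37 to -0.34 for Klk1b5, 0.06 against 0.30 to 0.33 for Muc5b, and 1.88 against 2.14 to 2.17 for Pip.

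The ratio had opposite signs on every array of the 2 times for Mucl2 (mean of 3.56 at 4 weeks) and for the dimmer probe of Smr3a (mean of 0.05 at 4 weeks). For these genes the difference between the times was not tested, and the 8-week sign of Mucl2 rests on signals near background.

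The ratio differed between the times (limma, adjusted p at most 0.00094) for the gland list genes below. They had been named for a 2-fold change in these same arrays, which goes far to fix such a difference, so nothing is read from their number. The difference, 8 minus 4 weeks on the log2 scale, was below 0 for Smgc (-0.81), Muc5b (-1.79), Dcpp1 (-1.49), Dcpp2 (-0.84), Dcpp3 (-1.22), Pip (-1.74), Lpo (-2.70), Prb1 (-2.21), Prpmp5 (-1.46) and Amy2a5 (-2.80). It was above 0 for Klk1 (1.72), Klk1b3 (1.63), Klk1b4 (1.71), Klk1b5 (1.87), Klk1b8 (1.65), Klk1b21 (1.22), Klk1b22 (1.46), Klk1b24 (1.48), Klk1b26 (1.95), Mup4 (1.62), Lcn11 (1.24) and Pigr (1.29).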

How the results depend on the processing

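For Amy1, Smr3a, Bpifa2, Cst10 and BC037156 at 8 weeks, and for Mucl2 and BC037156 at 4 weeks, the direction was the same under every alternative that gave a value. The lowest and highest log2 ratios at 8 weeks were -5.61 and -4.80 (Amy1), -4.79 and -3.66 (Smr3a), -4.26 and -3.98 (Bpifa2), -4.05 and -3.26 (Cst10) and -1.92 and -1.59 (BC037156). Cst10 and Mucl2 gave no value when both RNAs had to be above background on all arrays. The median of the 6 genes at 8 weeks was -3.70, with -3.96 under median centring, -3.50 with the median over probes and -4.07 with processed signals, and -1.09 was the processed value of Mucl2 there. Processed signals reversed Lcn11 (-0.056) and Mup4 (-0.10) at 4 weeks. The control rise became 7.11 (Amy1), 6.58 (Smr3a), 7.83 (Cst10) and 3.41 (Bpifa2) with processed signals, which were also the setting in which the DEP RNA of Cst10 differed by 3.93. The cause was not tested.

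Genes at an adjusted p of at most 0.05 numbered 7893 at 4 weeks (5053 with normexp on all spots, 4327 by the methods' t-test), 7729 at 8 weeks (4815 by the t-test, 4494 to 6213 without 1 array, lowest without replicate 2 of 8 weeks) and 6420 for the difference (3896 to 6891 without 1 array, lowest without that same array). Replicate numbers did not pair the arrays (correlation of deviations -0.0076 to 0.0166), and with the replicate block the difference had 3234 genes. For the control RNA 6259 became 12711 with processed signals. By the methods' thresholds 269, 608 and 632 genes (4 weeks, 8 weeks, difference) became 1323, 1448 and 2069 with processed signals. Median centring moved the median of all genes at 8 weeks from 0.01 to -0.11 and the share higher among those genes from 71.7% to 57.6% (4 weeks), 71.2% to 43.3% (8 weeks) and 62% to 39.4% (difference, 44.7% with processed signals). The lacrimal count of 4 at 4 weeks became 2 with processed signals, and the duct count of 9 became 5 without replicate 2 of 4 weeks. Of the tested gland genes named for a 2-fold change, 29 values under an alternative lost the call of an adjusted p of at most 0.05, and these were the 8-week values of Lpo and Pip (also without single 8-week arrays) and the small 4-week values of Dcpp2, Mup4, Klk1b8, Klk1b22, Klk1b24 and Klk1b26.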
